A study of Mus musculus with 2 samples.

Results

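Chemokines are small secreted proteins that draw immune cells along a concentration gradient by binding receptors on their surface. The intestinal epithelium makes its own set, and its members are known for different receptors. The 7 chemokine genes described here were chosen by symbol among the 32285 genes listed for each library. Ccl6 and Ccl9 are neighbouring genes of rodents whose products act mainly on Ccr1. Ccl25 is the gut-homing ligand of Ccr9. Ccl28 is the mucosal ligand of Ccr10 and Ccr3, known for guiding IgA plasma cells. Ccl20 is the ligand of Ccr6, known from the epithelium over lymphoid follicles. Cxcl16 and Cx3cl1 are made as membrane-bound proteins, ligands of Cxcr6 and Cx3cr1, and can be cut from the cell surface by the proteases Adam10 and Adam17.

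The cells were Tomato+ epithelial cells sorted from mouse small intestine and read as unique molecular identifiers (UMIs, each a tagged mRNA 3′ end) by droplet single-cell RNA-Seq. The WT library came from Neurog3Cre; Rosa26tdtomato mice and the library labelled NFKO from Neurog3Cre-FoxO1 f/f; Rosa26tdtomato mice, so that both carried the Cre and the reporter, and red cells descend from cells in which the endocrine progenitor gene Neurog3 was once active. Each group is 1 library of pooled intestines from 4 to 5 mice aged 4 to 6 weeks, so no test of the genotype was possible, no p-value is given, and every interval covers counting error only. After filtering, 3003 WT and 5292 NFKO cells held 78424392 and 111522270 UMIs, with medians of 16883 and 17035 UMIs per cell. The 2 libraries shared 6 cell barcodes.

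Several facts of the libraries touch every comparison between them. The Foxo1 transcript was found at 11.5 UMIs per 1000000 (CPM) in WT cells and at 12.4 in NFKO-labelled cells, which gives a ratio of 1.07 (95% interval 0.987 to 1.17), and in enteroendocrine-like cells the ratio was 0.841 (0.732 to 0.968). The part of the gene that the floxed alleles remove is not given in the sources used here, so these 3′ tags may not check the label. The paper itself reports lower FoxO1 expression in Tomato+ cells sorted from NFKO mice. By Y-linked and Xist UMIs, 2424 WT cells were typed male and 6 female, against 357 male and 4357 female in NFKO. Sex and genotype therefore cannot be told apart outside the male-typed cells. Of all barcodes, 35.6% in WT and 17.3% in NFKO exceeded the limit of 25% mitochondrial UMIs and were left out. The 11 genes of a dissociation stress list summed to 4514 CPM in WT and 3981 in NFKO, and they differed in direction. The heat shock gene Hspa1a was at 296 CPM in WT and 23.2 in NFKO, and Jun at 1111 and 787. Fos, at 754 and 904 CPM, and Ier2, at 398 and 556, went the other way. The part of these differences in the chemokine ratios was not tested, except where male-typed values are given beside a ratio.

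Cell classes were named from fixed marker genes, and all chemokine genes were kept out of the clustering, so that no class owes its definition to them. Of 23 clusters, 4 were goblet-like (913 WT and 1777 NFKO cells), 2 Paneth-like (262 and 244), 8 enteroendocrine-like (990 and 1864), 2 enterocyte-like (256 and 356), 2 cycling (102 and 296), 1 stem-like (304 and 210) and 1 tuft-like (86 and 140). The stem-like cluster was led by the stem cell gene Olfm4 and also by Mcm3 and Hells, genes of DNA replication. A cluster of 15 and 4 cells was lymphocyte-like, and 2 clusters stayed unnamed. Markers of other tissues were low in sum. The macrophage and dendritic markers Adgre1 and Itgax had 0 UMIs, as had the M cell marker Gp2. Other myeloid markers were found, with 489 UMIs of Itgam, 325 of Cd68 and 139 of C1qa. Of the M cell list, Tnfrsf11a had 2029 UMIs and Spib 1157, and the endothelial marker Pecam1 had 383. Spib was highest in tuft-like cells, with 401 CPM in WT, and the M cell list summed there to 416 CPM in WT and 371 in NFKO. Over all cells the myeloid list summed to 9.92 CPM in WT and 4.13 in NFKO, and the M cell list to 15.8 and 18.6. The 5 stromal markers summed to 0.0893 and 0.143 CPM.

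The promoters of 4 members are shown first because the results turn on them. Ccl6 (chr11:83587882-83593087, minus strand) and Ccl9 (chr11:83572919-83578636, minus strand) lie 9245 bases apart on GRCm38. Both were highest in goblet-like, Paneth-like, cycling and stem-like cells. The 250 bases before each start, from RefSeq (GRCm38.p6), are printed 5′ to 3′ on the gene's strand, with the 2 runs of at least 12 bases that the pair share in capitals. The first run began 86 bases before the Ccl6 start and 20 before the Ccl9 start, and the second 55 and 14 bases before. In Ccl9 the 2 runs overlap into 1 stretch that ends beside the start.
Ccl6, chr11:83593088-83593337: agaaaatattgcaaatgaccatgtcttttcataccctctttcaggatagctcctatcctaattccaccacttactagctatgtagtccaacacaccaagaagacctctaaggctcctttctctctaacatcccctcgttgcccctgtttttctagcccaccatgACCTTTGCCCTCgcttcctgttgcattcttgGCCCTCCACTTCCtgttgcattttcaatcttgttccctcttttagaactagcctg
Ccl9, chr11:83578637-83578886: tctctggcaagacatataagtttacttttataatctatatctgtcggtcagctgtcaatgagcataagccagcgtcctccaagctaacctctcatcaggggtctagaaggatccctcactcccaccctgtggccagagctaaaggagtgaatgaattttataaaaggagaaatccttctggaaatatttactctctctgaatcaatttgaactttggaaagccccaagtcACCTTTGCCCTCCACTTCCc

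Ccl25 and Ccl20 are shown beside them because Ccl25 was highest in enterocyte-like cells of both libraries and Ccl20 in those of NFKO alone. Ccl25 (chr8:4325210-4360020, plus strand) has 2 starts in RefSeq, and the downstream one is printed with TATAAA in capitals. The letters TATAAA, on either strand, occur in 12.4% of the 32851 promoters of this length and in those of Ccl9, Ccl25 (downstream start) and Cx3cl1. Ccl20 (chr1:83116766-83119167, plus strand) is printed with GGGAAA, part of the sequence that NF-kB proteins are known to bind, or its complement in capitals. These letters occur in 21.9% of promoters, and among the members only in that of Ccl20. The E-box letters CAGCTG occur in 13% of promoters and in those of Ccl9 and Ccl28. The letters of the GATA factor motif, AGATAA, occur in 9.99% of promoters and in none of the members' windows. A match of letters is a description and not a bound site. Cxcl16 had no entry.
Ccl25, chr8:4349338-4349587: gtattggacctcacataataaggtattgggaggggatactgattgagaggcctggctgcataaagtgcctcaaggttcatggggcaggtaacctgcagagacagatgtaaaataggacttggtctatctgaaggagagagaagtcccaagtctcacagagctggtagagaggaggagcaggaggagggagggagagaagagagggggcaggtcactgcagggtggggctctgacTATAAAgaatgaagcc
Ccl20, chr1:83116516-83116765: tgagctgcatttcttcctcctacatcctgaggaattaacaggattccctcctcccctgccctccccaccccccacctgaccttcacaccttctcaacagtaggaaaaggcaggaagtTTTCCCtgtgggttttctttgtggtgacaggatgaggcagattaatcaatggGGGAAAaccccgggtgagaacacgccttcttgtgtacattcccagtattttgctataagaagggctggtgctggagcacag

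The remaining members lie at chr13:119623819-119654359 (Ccl28, plus strand), chr11:70453983-70459984 (Cxcl16, minus strand) and chr8:94772009-94782427 (Cx3cl1, plus strand). Ccl6, Ccl25 and Cxcl16 overlap genes on the other strand, E230016K23Rik, Elavl1 and Zmynd15. Whether the counting used strand is not given in the sources used here, so reads from these overlaps may not be separable.

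Over both libraries Ccl6 had 176263 UMIs, Ccl9 had 78815, Ccl25 15380, Cx3cl1 3888, Ccl28 3361, Ccl20 1070 and Cxcl16 1038. Ccl6 and Ccl9 were highest in goblet-like, Paneth-like, cycling and stem-like cells, Ccl25 in enterocyte-like cells, and Ccl28 in enteroendocrine-like cells. Cx3cl1 was split between goblet-like and enterocyte-like cells, and Ccl20 and Cxcl16 were scarce, with most of their NFKO UMIs in clusters 8 and 0.

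**Figure D1:**
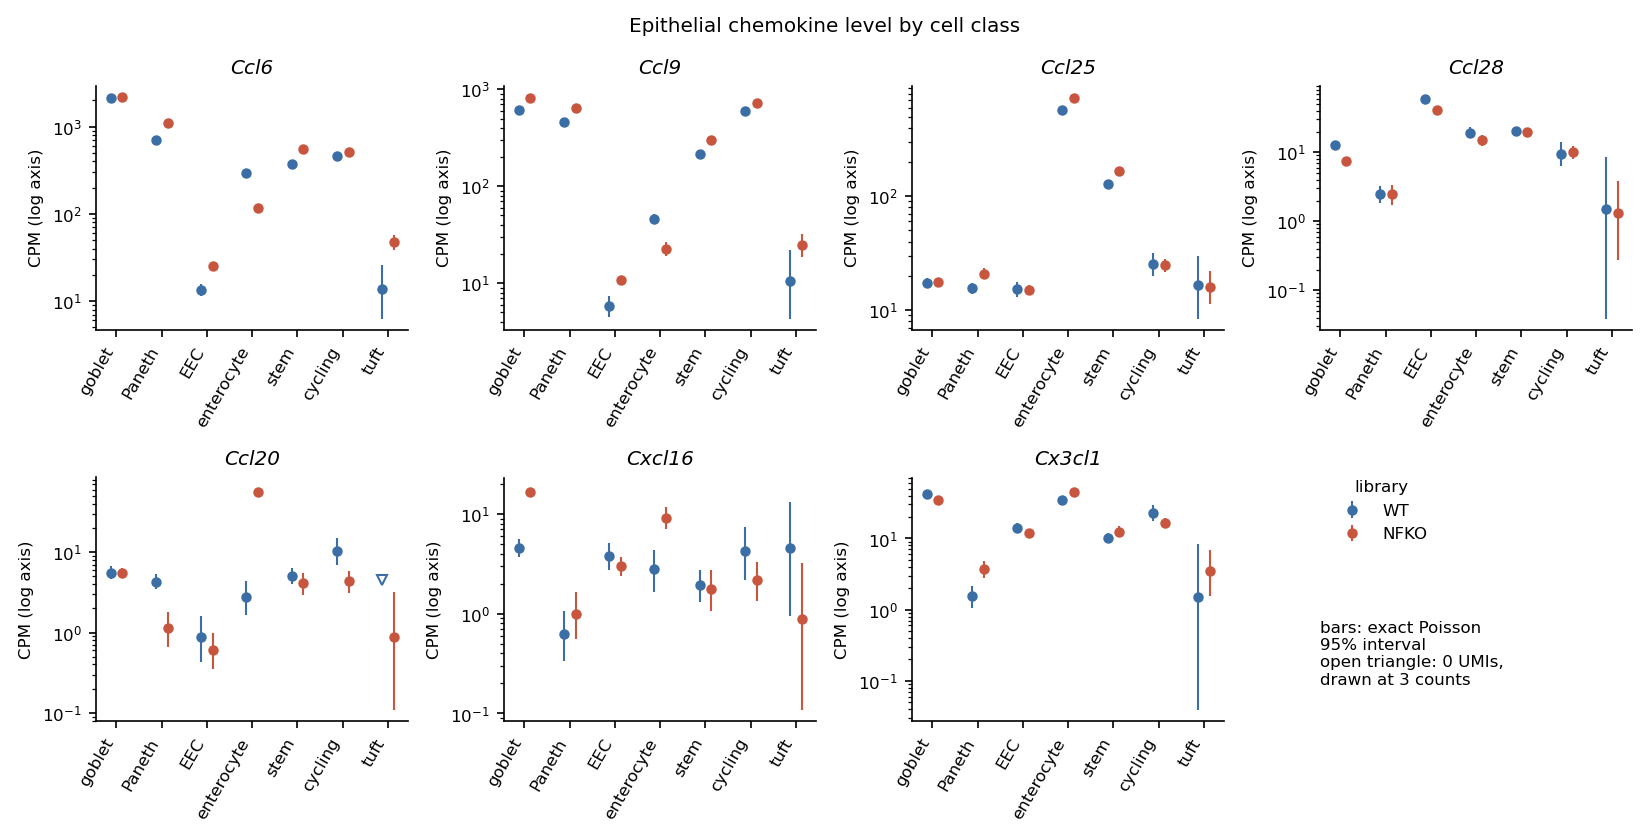
Level of each chemokine (CPM, log axis) in the 7 cell classes, WT in blue and NFKO in red, with exact Poisson 95% intervals; EEC stands for enteroendocrine-like and the open triangle marks 0 UMIs, drawn at 3 counts. Ccl6 and Ccl9 were lowest in enteroendocrine-like cells, Ccl25 stood far above its other levels in enterocyte-like cells, and Ccl20 in enterocyte-like cells was 2.78 CPM in WT and 56.0 CPM in NFKO.

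Ccl6 was the most abundant chemokine of goblet-like cells, the mucus-secreting cells of the villus and crypt. It stood at 2126 CPM in WT and 2163 CPM in NFKO goblet-like cells. Paneth-like cells, which release antimicrobial peptides at the crypt base, had 694 and 1102 CPM. Cycling cells had 466 and 511 CPM, stem-like cells 370 and 556, and enterocyte-like cells 297 and 116. Tuft-like cells had 13.7 and 47.0 CPM and enteroendocrine-like cells 13.4 and 25.2. Each step in this order was wider than the counting intervals in NFKO, where stem-like cells stood above cycling cells, and in WT all were except that between tuft-like and enteroendocrine-like cells. With each cell thinned to 2000 UMIs, 74.7% of WT and 75.6% of NFKO goblet-like cells had a Ccl6 UMI, and without thinning 89.7% and 92.5%. Among enteroendocrine-like cells the thinned shares were 2.44% and 6.85%.

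Ccl9 broadly followed Ccl6 between classes, and parted from it along the goblet clusters. Goblet-like cells had 617 CPM in WT and 823 CPM in NFKO, cycling cells 598 and 732, Paneth-like cells 465 and 642, and stem-like cells 216 and 303. The WT intervals of goblet-like and cycling cells overlapped. With median-of-ratios scaling in place of CPM, Paneth-like cells stood highest for both Ccl6 and Ccl9, and for Ccl9 also with the mean of per-cell CPM, by marker score and after thinning. Enterocyte-like cells had 46.2 and 22.6 CPM, tuft-like cells 10.6 and 24.8, and enteroendocrine-like cells 5.84 and 10.7. Over the 23 clusters, both libraries summed, Pearson's r of log2(CPM + 1) between Ccl6 and Ccl9 was 0.90, the highest of any pair of members. The clusters share libraries and depth, so r is a description.

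Cluster 10 was led by Dll1, Spdef and Gfi1, genes of secretory progenitors, and held Ccl6 at 741 CPM in WT and 1064 in NFKO beside Ccl9 at 848 and 1035. Cluster 1, led by Mptx1, Agr2 and Klk1, with Ccl6 itself among its 10 leading genes, held Ccl6 at 2472 and 2647 CPM and Ccl9 at 506 and 1127. Cluster 3, led by Edn2, Areg and Hspa1a, held Ccl6 at 2201 and 2707 CPM and Ccl9 at 651 and 907, but 3 of its 19 NFKO cells held 71.6% of the NFKO Ccl6 UMIs. In cluster 0, led by Ido1, Zg16 and Clca1, genes of mature goblet cells, Ccl6 stayed at 1670 and 1788 CPM while Ccl9 stood at 72.1 and 41.5 CPM. There were thus 23.2 Ccl6 UMIs for each Ccl9 UMI in WT cells of cluster 0 (95% interval 17.5 to 31.3) and 43.0 in NFKO (39.0 to 47.6). In cluster 10 the same ratio was 0.874 (0.807 to 0.946) and 1.03 (0.993 to 1.07), and the dividing clusters 13 and 20 gave values under 1 in both libraries, 0.840 and 0.812 for cluster 13 and 0.569 and 0.411 for cluster 20. The ratio compares 3′ tags, which do not scale with transcript length.

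Single cells showed the same split. In cluster 0 of NFKO, 593 of 761 cells thinned to 2000 UMIs had Ccl6 without Ccl9, 55 had both and 7 had Ccl9 alone. In cluster 10 of NFKO, 28 of 231 cells had Ccl6 alone, 74 both and 96 Ccl9 alone. Cells with Ccl9 alone were thus the larger set in the progenitor cluster and nearly missing from the mature one. In WT, cluster 0 had 63 cells with Ccl6 alone, 10 with both and 2 with Ccl9 alone among 92, and cluster 10 had 13, 23 and 22 among 73.

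**Figure D2:**
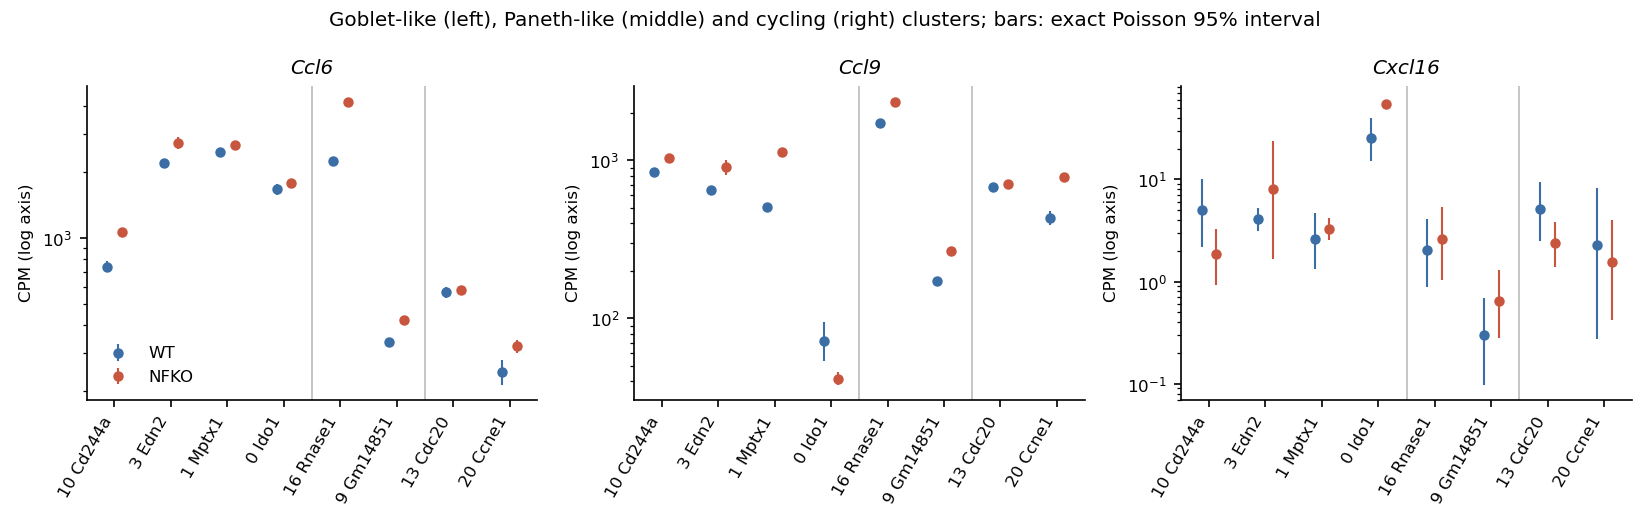
Ccl6, Ccl9 and Cxcl16 (CPM, log axis) in the goblet-like clusters 10, 3, 1 and 0, the Paneth-like clusters 16 and 9 and the cycling clusters 13 and 20, each with its leading gene, WT in blue and NFKO in red, with exact Poisson 95% intervals. Ccl9 dropped to 72.1 CPM (WT) and 41.5 CPM (NFKO) in cluster 0, the cluster where Cxcl16 reached 25.4 and 54.5 CPM, while Ccl6 stayed at 1670 and 1788 CPM there.

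The Paneth-like class held 2 unlike clusters, of which cluster 9 passed 10 of 10 Paneth markers and cluster 16 passed 5 of 10. The latter held 20055 of the 30875 Ccl6 UMIs of the class, both libraries summed. Cluster 9 was led by defensins and had Ccl6 at 334 CPM in WT and 423 CPM in NFKO, with Ccl9 at 172 and 266. Cluster 16, led by Rnase1, Retnlb and Mmp7, had Ccl6 at 2251 and 4177 CPM and Ccl9 at 1731 and 2346 CPM, the highest Ccl9 of any cluster in either library. The Ccl6 level of its 83 NFKO cells was also the highest of any cluster. The top 3 cells of cluster 16 held 13.2% of its Ccl6 UMIs in WT and 14.1% in NFKO.

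Low counts of Ccl6 and Ccl9 were found in enteroendocrine-like and tuft-like cells. In enteroendocrine-like cells there were 2.29 Ccl6 UMIs per Ccl9 UMI in WT (1.70 to 3.10) and 2.36 in NFKO (2.06 to 2.71), and over all cells 2.43 and 2.13. The mix lay near that of the whole library. Whether free RNA took part in these low levels was not tested. In tuft-like cells it was 1.29 (0.426 to 4.06) and 1.89 (1.36 to 2.67). The enterocyte-like cells had another mix, 6.43 in WT (5.69 to 7.29) and 5.13 in NFKO (4.34 to 6.11).

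Ccl25 was the chemokine of absorptive cells. It stood at 579 CPM in WT and 725 CPM in NFKO enterocyte-like cells, followed by stem-like cells at 128 and 167 CPM. All other classes lay between 15.1 and 25.2 CPM in both libraries, with thinned shares of 3.29% and 3.23% in goblet-like and 3.05% and 3.01% in enteroendocrine-like cells, and by cluster from 2.71 CPM (1 UMI, cluster 3 of NFKO) to 44.0 CPM (cluster 16 of NFKO). The stem-like level was well above these, with a UMI in 20.1% of thinned WT and 32.5% of thinned NFKO cells. In enterocyte-like cells the thinned shares were 64.6% and 67.7%. The 2 enterocyte-like clusters lay close together. Cluster 8, led by the villus genes Apoa4, Apoa1 and Lct, had 603 and 750 CPM, and cluster 14, led by Apol10a, Car4 and Ms4a18, had 576 and 700 CPM. The wide spread of Ccl25 over the absorptive cells set it apart from Ccl20 in the same cells: 37 WT and 51 NFKO enterocyte-like cells held 50% of all Ccl25 UMIs of the class.

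Ccl28 was the chemokine of enteroendocrine-like cells, the hormone-secreting cells of the gut, and it did not mark all of them. The class had 58.5 CPM in WT and 41.0 CPM in NFKO. The highest level lay in cluster 18, led by Sst, the somatostatin gene of D cells, with 166 and 112 CPM. Cluster 6, led by Gcg and Insl5, hormone genes of L cells, had 92.4 and 90.8 CPM, and cluster 2, led by Gip, the hormone of K cells, had 85.6 and 56.7 CPM. Cluster 19, led by Ppy, had 55.1 and 25.5 CPM. The Tac1 cluster 7, of enterochromaffin type, was lower at 24.4 and 11.6 CPM. Cluster 4, which held the Neurog3 and Ghrl cells, had 6.35 and 6.55 CPM, and the Cartpt cluster 11 had 0 UMIs in WT and 8 UMIs (3.28 CPM) in NFKO. At 2000 UMIs per cell, 36.1% of WT (20.8% to 53.8%) and 20.2% of NFKO (13.2% to 28.7%) cells of the Sst cluster had a Ccl28 UMI. Stem-like cells had 20.6 and 19.9 CPM, enterocyte-like cells 19.3 and 15, goblet-like cells 12.8 and 7.57, and cycling cells 9.59 and 9.96. Paneth-like cells, with 2.46 and 2.47 CPM, and tuft-like cells, with 1 and 3 UMIs, had the least.

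**Figure D3:**
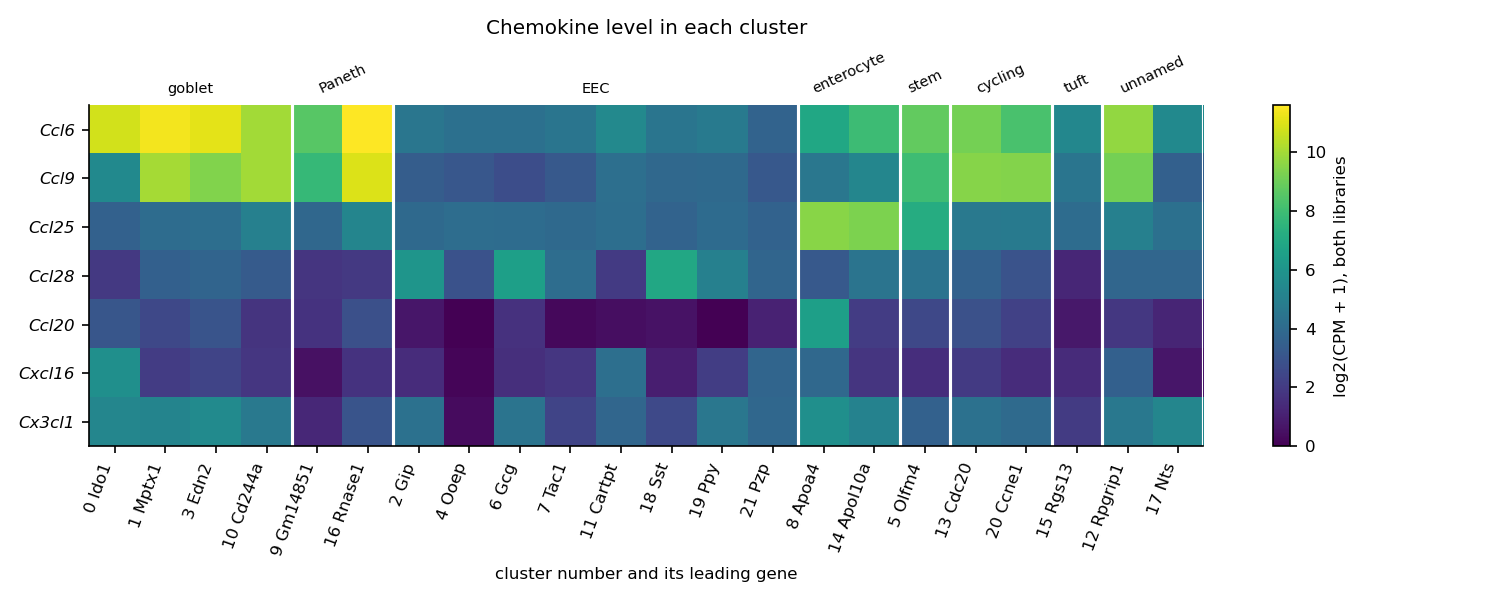
Level of each chemokine as log2(CPM + 1), both libraries summed, in 22 of the 23 clusters (the lymphocyte-like one is left out), grouped by class, with each cluster's number and leading gene on the x axis. Ccl6 was brightest in goblet clusters and cluster 16, Ccl25 in clusters 8 and 14, Ccl28 in clusters 18, 6 and 2, Ccl20 in cluster 8, and Cxcl16 in cluster 0.

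Cx3cl1, the membrane-bound ligand fractalkine, was broad and low. Goblet-like cells had 42.6 CPM in WT and 35.0 in NFKO, and enterocyte-like cells 35.1 and 45.0. These 2 classes exchanged the lead between the libraries, and their WT intervals overlapped. Cycling cells had 23.1 and 16.3 CPM, enteroendocrine-like cells 13.9 and 11.8, and stem-like cells 10.3 and 12.4. Paneth-like cells were near the bottom with 1.54 and 3.74 CPM. The enteroendocrine-like clusters differed among themselves. The Gip cluster 2 had 27.4 and 15.7 CPM and the Gcg cluster 6 had 17.5 and 23.3 CPM. Cluster 4 had 0 UMIs in WT and 2 UMIs in NFKO. Cluster 17, unnamed but with 7 of 10 enteroendocrine markers passed, is described at the end. For cluster 4 a count of 0 in WT allows up to 3 UMIs. The sheddase gene Adam10 was measured at 44.8 and 48.8 CPM over all cells and Adam17 at 11.6 CPM in both libraries.

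Cxcl16, the other membrane-bound member, had 526 of its 823 NFKO UMIs in cluster 0, but 18 of its 215 in WT. Those mature goblet-like cells had 25.4 CPM in WT and 54.5 CPM in NFKO, while the goblet clusters 10, 3 and 1 lay between 1.84 and 8.12 CPM. Of the NFKO cells of cluster 0, 288 of 803 had at least 1 UMI, and at 2000 UMIs 10.2% did (8.19% to 12.6%). In WT, 15 of 93 had one, and 5.43% after thinning (1.79% to 12.2%). Outside cluster 0, cluster 21, led by Pzp and Cck, had 35.1 and 9.65 CPM, from 7 and 15 UMIs, the Cartpt cluster 11 had 13.9 and 18.4 CPM, from 4 and 45 UMIs, and cluster 8 had 6.03 and 15.7 CPM, from 4 and 57 UMIs.

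Ccl20 was the rarest member by cells, with a UMI in 129 WT and 289 NFKO cells. In WT cycling cells had the most, 10.3 CPM, of which 3 cells held 72.4%, followed by goblet-like cells with 5.57, stem-like 5.05, Paneth-like 4.30 and enterocyte-like 2.78. In NFKO the enterocyte-like cells had 56.0 CPM and the next class, goblet-like, 5.52. Of the 403 NFKO enterocyte-like UMIs, 389 lay in cluster 8. Within that cluster WT had 2 UMIs in 1 of 123 cells and NFKO had 389 UMIs in 42 of 246 cells, and the 2 richest cells, with 122 and 85 UMIs, held more than 50% of them. At 2000 UMIs per cell, 12.6% of NFKO cells of cluster 8 had a Ccl20 UMI (8.44% to 17.7%) and 0 of 121 WT cells did (upper limit 3%). The cells of this cluster were not alike in the 2 libraries. Enterocyte markers made up 0.0485% to 6.24% of UMIs in its 123 WT cells. They made up 0.246% to 14.4% in its 234 NFKO cells with under 5 Ccl20 UMIs. The part of this difference in the Ccl20 levels was not tested.

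Because cluster 8 was named by its enterocyte markers, the marker shares of its Ccl20 cells are a description. In 12 NFKO cells with at least 5 Ccl20 UMIs the 10 enterocyte markers made up 1.16% to 12.2% of UMIs. The 10 goblet markers made up at most 1% in 8 of the 12, which held 229 of the 339 UMIs. The same held for 157 of the 234 other NFKO cells of the cluster. In the cell with 85 UMIs goblet markers made up 14.1% and enterocyte markers 3.71%, and in a cell with 8 UMIs 1.32% and 1.17%. Over all 12 cells the goblet markers summed to 46493 CPM, against 13427 CPM in the 204 cells without Ccl20. The cell with 85 Ccl20 UMIs, the deepest of the 12 with 62132 UMIs, weighed most in that sum. By cell, the median goblet marker share was 0.680% in the 12 and 0.719% in the 234 others. The lymphocyte, myeloid and M cell lists summed to 5.05, 10.1 and 10.1 CPM in the 12 cells. The 8 NF-kB response genes summed to 647 CPM in the 12 cells, to 390 CPM in 30 cells with 1 to 4 Ccl20 UMIs and to 282 CPM in the 204 cells with none. Their part in the Ccl20 level was not tested.

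**Figure D4:**
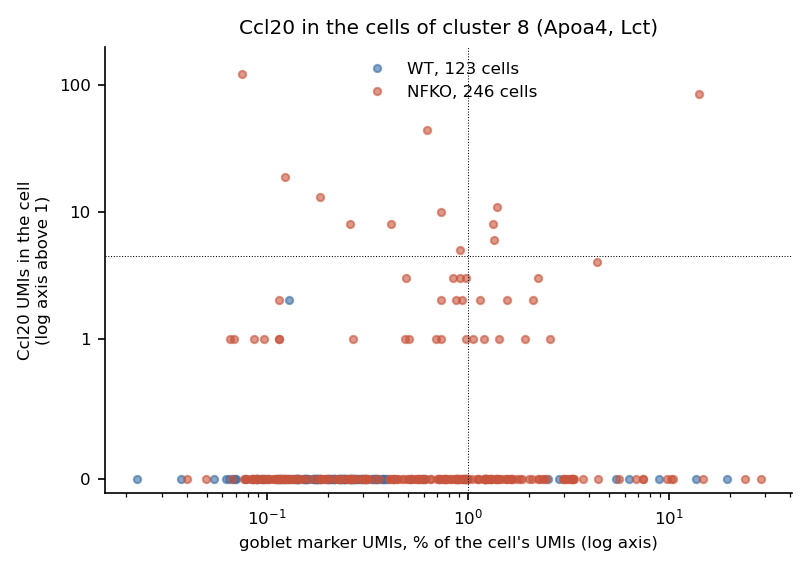
Each point is 1 cell of cluster 8, with the share of its UMIs from the 10 goblet markers on the x axis (percent, log axis) and its Ccl20 UMIs on the y axis (linear to 1, log above), WT in blue and NFKO in red; the dotted lines mark 1% and the step from 4 to 5 UMIs. In WT 1 cell has any Ccl20 UMI, and 8 of the 12 NFKO cells above the upper line lie at or left of 1%.

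The second question was NFKO beside WT. A pair of chemokine and class was counted when it had at least 50 UMIs over both libraries, and was called when the CPM ratio of NFKO over WT was at least 1.5-fold away from 1. Of 40 counted pairs, 10 were higher in NFKO, 5 lower and 25 neither. Over all genes and classes, 8.83% of 69566 pairs were called higher and 7.06% lower. The members' median log2 ratio was 0.09.

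By class, the members' calls against the share of all genes called were as follows. In goblet-like cells 1 of 7 members was higher and 1 lower, against 7.7% and 4.87% of all genes. In Paneth-like cells 2 of 6 were higher and 1 lower, against 10.4% and 4.61%, with a median log2 ratio over all genes of 0.15. In enteroendocrine-like cells 2 of 6 were higher and 0 lower, against 6.35% and 6.48%. In enterocyte-like cells 2 of 7 were higher and 2 lower, against 10.5% and 10.2%. In stem-like cells 1 of 6 was higher and 0 lower, against 4.9% and 6.36%. In cycling cells 0 of 6 were higher and 1 lower, against 7.52% and 5.74%. In tuft-like cells, the class with the fewest UMIs, both counted members were higher, against 19.6% of genes called higher and 14.3% lower. With so few members in a class, these counts are a description.

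**Figure D5:**
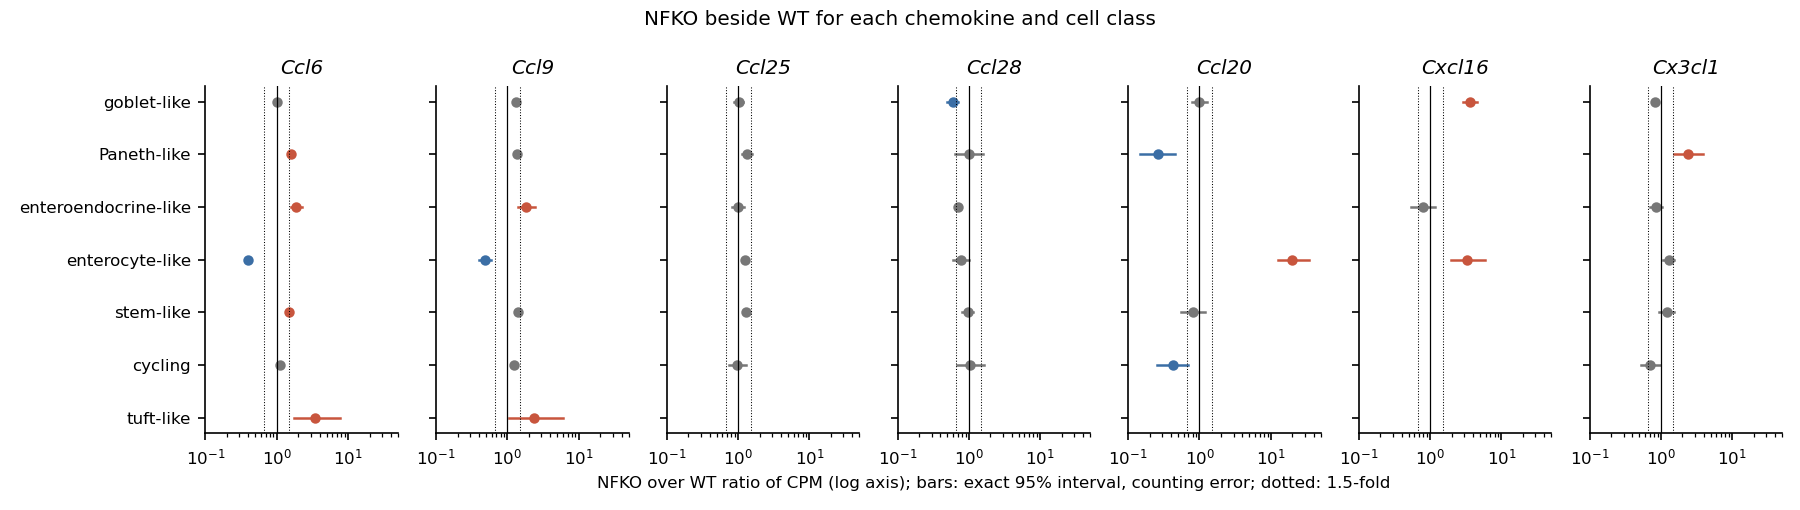
NFKO over WT ratio of CPM (log axis) for the 40 counted pairs, with exact 95% intervals for counting error; red marks at least 1.5-fold higher in NFKO, blue at least 1.5-fold lower, and grey neither. Ccl20 in enterocyte-like cells lies farthest from 1, at 20.1, and all 6 Ccl25 ratios are grey.

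The highest ratio was that of Ccl20 in enterocyte-like cells, 20.1 (12.6 to 34.3). It rested on cluster 8, where the range of enterocyte marker shares also differed between the libraries. Cluster 14 had 2.75 CPM in WT and 3.93 in NFKO. Leaving out the 3 richest cells of each library gave a ratio of 19.1, and with the mean of per-cell CPM it was 71.6. In male-typed cells alone, WT had 18 UMIs in 166 enterocyte-like cells (3.06 CPM) and NFKO 8 UMIs in 23 cells (10.9 CPM), a pair below the 50 UMI minimum. Within cluster 8, male-typed WT cells had 6.41 CPM (0.777 to 23.2), from 2 UMIs in 47 cells. Male-typed NFKO cells there had 15.4 CPM (5.66 to 33.6), from 6 UMIs in 15 cells, so that the male-typed intervals overlap. Female-typed NFKO cells of cluster 8 had 130 CPM (117 to 144), from 366 UMIs, with a UMI in 34 of 164 cells. In goblet-like cells the Ccl20 ratio was 0.991, but other clusters carried it, cluster 3 in WT with 103 UMIs and clusters 0 and 1 in NFKO with 77 and 116. Within cluster 1 Ccl20 was at 0.478 CPM in WT, from 2 UMIs, and 5.64 CPM in NFKO, a ratio of 11.8 (3.19 to 98.5). Within cluster 0 the ratio was 5.64 (0.983 to 226), with 1 UMI in WT. The other 2 went the other way, with 0 NFKO UMIs in cluster 3 and a ratio of 0.264 (0.0929 to 0.751) in cluster 10, from 9 and 9 UMIs. Ccl20 was lower in NFKO Paneth-like cells, 4.30 and 1.14 CPM (ratio 0.264, 0.147 to 0.447), where the top 3 WT cells held 53.9% of its UMIs. It was also lower in cycling cells, 10.3 and 4.31 CPM (0.419, 0.255 to 0.697), where the top 3 WT cells held 72.4%.

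Cxcl16 was higher in NFKO goblet-like cells, 4.61 and 16.6 CPM, with a ratio of 3.61 (2.90 to 4.53). The class was made up of other clusters in the 2 libraries. Cluster 0 held 93 of the WT and 803 of the NFKO goblet-like cells, and cluster 3 held 588 and 19. Within cluster 0 the ratio was 2.14 (1.34 to 3.64), and within cluster 1 it was 1.26 (0.660 to 2.63). In male-typed cells of cluster 0 the level was 25.1 CPM in WT and 42.2 in NFKO, with intervals of 13 to 43.8 and 29.4 to 58.7 that overlap. In enterocyte-like cells Cxcl16 was at 2.78 and 9.17 CPM, from 18 and 66 UMIs, a ratio of 3.30 (1.93 to 5.90). Cluster 14 was even, at 2.41 and 2.52 CPM, and cluster 8 had a ratio of 2.60 (0.962 to 9.88), while cluster 8 made up 123 of 256 WT and 246 of 356 NFKO cells of the class.

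Ccl6 was close to even between libraries in goblet-like cells, where the ratio was 1.02 (1.01 to 1.03) and each of clusters 0 and 1 gave 1.07. It was 1.23 (1.15 to 1.31) in cluster 3, 1.44 (1.35 to 1.53) in cluster 10 and 1.36 in male-typed goblet-like cells. In Paneth-like cells the ratio was 1.59, made up of 1.86 (1.80 to 1.91) in cluster 16 and 1.27 (1.22 to 1.31) in cluster 9. The Paneth-like ratio fell short of the 1.5-fold mark with median-of-ratios scaling (1.43), the mean of per-cell CPM (1.39), classes by marker score (1.49) and thinning (1.34). In male-typed Paneth-like cells the levels were 722 and 2887 CPM, the latter from 12 cells. The 3 other higher calls were stem-like cells at 1.5, enteroendocrine-like cells at 1.89 (13.4 and 25.2 CPM) and tuft-like cells at 3.44 (9 and 106 UMIs). The stem-like call was lost in 4 of 10 alternatives, with a lowest ratio of 1.38 without the 3 richest cells. In the tuft-like class 3 of 140 NFKO cells held 51.9% of the UMIs, and 1 of them 47. In enterocyte-like cells Ccl6 was lower in NFKO, with a ratio of 0.392, and the 2 clusters disagreed. Cluster 14 had 323 and 106 CPM, a ratio of 0.329 (0.293 to 0.367), and cluster 8 had 70.8 and 126 CPM, a ratio of 1.78 (1.32 to 2.46). At 2000 UMIs per cell, 16.1% of WT and 16.6% of NFKO enterocyte-like cells had a Ccl6 UMI, and 11 WT cells held 50% of the UMIs of the class. In male-typed cells of cluster 14 the levels were 335 and 156 CPM, the latter from 8 cells.

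For Ccl9 the goblet-like ratio of 1.34 also hid unlike clusters. Cluster 1 had 506 and 1127 CPM, a ratio of 2.23 (2.13 to 2.33), with a UMI in 43.4% of thinned WT and 64.9% of thinned NFKO cells. In male-typed cells of cluster 1 the levels were 530 and 825 CPM, but over all male-typed goblet-like cells the ratio was 0.946. Cluster 0 had a ratio of 0.576 (0.430 to 0.787). Paneth-like cells had a ratio of 1.38 over the class, with 1.36 in cluster 16 and 1.54 in cluster 9. The called ratios were 0.490 in enterocyte-like cells (299 and 163 UMIs), where 4 WT cells held 50% of the UMIs, 1.83 in enteroendocrine-like and 2.33 in tuft-like cells. The enterocyte-like clusters again disagreed, with 0.384 (0.291 to 0.5) in cluster 14 and 2.86 (1.27 to 7.99) in cluster 8, from 6 and 94 UMIs. In tuft-like cells 1 NFKO cell held 24 of 56 UMIs, and the ratio was 1.35 without the 3 richest cells, 1.46 after thinning and 1.33 by marker score.

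Ccl28 was lower in NFKO goblet-like cells, 12.8 and 7.57 CPM, a ratio of 0.592 (0.498 to 0.703), with 3.18% and 1.27% of thinned cells carrying a UMI. In enteroendocrine-like cells the ratio of 0.701 (0.636 to 0.773) stayed short of the 1.5-fold mark. Clusters differed here too. The Gcg cluster had 0.983 (0.844 to 1.15), the Gip cluster 0.662 (0.561 to 0.784), the Sst cluster 0.677 (0.495 to 0.940), the Tac1 cluster 0.473 (0.303 to 0.734) and the Ppy cluster 0.462 (0.276 to 0.789). In male-typed enteroendocrine-like cells the levels were 58.6 CPM in WT and 31.5 CPM in NFKO, from 574 and 58 UMIs.

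Cx3cl1 was called in Paneth-like cells alone among the 6 counted classes, at 1.54 and 3.74 CPM (ratio 2.42, 1.54 to 3.87), from 32 and 56 UMIs. The ratio was 5.66 in cluster 9, from 8 and 33 UMIs, and 1.38 in cluster 16, and the call was lost with the mean of per-cell CPM (1.49) and by marker score (1.33). In goblet-like cells its ratio was 0.822 (0.754 to 0.897), and in enterocyte-like cells 1.28 (1.08 to 1.53). Ccl25 was called in none of its 6 counted classes, and its ratio was 1.25 in enterocyte-like and 1.30 in stem-like cells.

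The genes most like each member over the 23 clusters were sought among 10994 genes with at least 500 UMIs, by Pearson's r of log2(CPM + 1). Ccl6 lay closest to Guca2a (0.97), the guanylin gene, Rep15 (0.97) and Spink4 (0.97). Ccl9 lay closest to Gfi1 (0.93), Dnah17 (0.91) and Mmp7 (0.91), the last a Paneth cell protease. Ccl25 was nearest to Aadac (0.96), Apol10a (0.94) and Ms4a18 (0.94). Ccl28 was nearest to Prps1 (0.88), Gsto1 (0.84) and Gpc4 (0.83). Ccl20 had Plcd1 (0.85), 1810055G02Rik (0.84) and Slc6a20a (0.83) as its nearest genes, Cxcl16 had Akr1b7 (0.82), Slc22a23 (0.79) and Trim15 (0.78), and Cx3cl1 had Nr3c2 (0.91), Btnl4 (0.89) and Areg (0.87). The values are over clusters that share libraries and depth, and are given as a description.

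Other chemokine ligands were nearly absent from the epithelium. Of 30 fixed genes, 29 were listed, 9 had 0 UMIs and 26 had fewer than 100. Ccl5, a T cell chemokine, had 784 UMIs in 13 cells, of which 777 lay in the WT lymphocyte-like cells. Ccl27a had 1186 UMIs at a low level in all 7 epithelial classes, highest in NFKO tuft-like cells (15.1 CPM) and in WT enteroendocrine-like cells (14.2 CPM). The receptors of the members, known mainly from immune cells, were close to 0. Ccr9 had 51 UMIs, Cx3cr1 13, Ccr10 11, Cxcr6 9, Ccr6 3, Ccr1 2 and Ccr3 0. Of 17 receptors, 1 passed the level for naming. It was Ackr4, the scavenging receptor that takes up Ccl25, with 57.7 CPM in WT and 51.4 CPM in NFKO tuft-like cells, which held 38 of its 40 WT and 116 of its 124 NFKO UMIs.

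The NF-kB response list was also summed by class and library, and its part in the Ccl20 ratio was not tested. In enterocyte-like cells its 8 genes summed to 285 CPM in WT and 256 CPM in NFKO, and of 7 counted genes 1 was higher, 0 were lower and 6 were neither. Within cluster 8 the sum was 470 and 315 CPM. In goblet-like cells it was 241 CPM in both libraries, with 1 of 7 counted genes higher and 0 lower, and Nfkbia, an inhibitor of NF-kB that is itself induced by it, at 79.4 and 66.5 CPM. Of the 11 stress genes, 4 to 6 were called lower in NFKO in each class and 0 higher. In cluster 1, where Ccl9 was higher in NFKO, their sum was 1436 CPM in WT and 4902 CPM in NFKO, and their part in the Ccl9 ratio was not tested.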

How the data were processed

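The authors aligned and counted the reads with Cell Ranger 5.0.1 against the mm10 mouse genome, per the labels and methods, and deposited raw UMI counts per gene and barcode for each library. Whether counting used strand is not given in the sources used here. Barcodes were dropped below 500 genes or 1000 UMIs, or above 25% mitochondrial UMIs, which left 3129 in WT and 5632 in NFKO. Scrublet (scanpy 1.11.5) marked 3 and 0 cells by its own threshold, so the highest-scoring 0.8% per 1000 barcodes were removed instead (126 and 340). The 2 libraries were pooled and clustered with Seurat 5.3.0 (R 4.3.3; 30 principal components, resolution 0.8), with 63 chemokine, receptor, sex-linked and other genes kept out. Clusters were named from marker lists.

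Levels are UMIs per 1000000 (CPM). Their 95% intervals are exact Poisson, those of shares Clopper-Pearson, and those of ratios come from the exact binomial split of the UMIs. PCR copies were collapsed by UMI, and these intervals cover counting error only. A pair was counted at 50 UMIs and called at 1.5-fold. For shares, cells were thinned to 2000 UMIs, which left out 32 WT and 335 NFKO cells. Gene positions came from GENCODE (GRCm38), promoters from RefSeq (GRCm38.p6), matched for 6 of 7 members.

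The genes named were the 7 members, other ligands and receptors with at least 100 UMIs and 10 CPM in a class, the members' receptors, the sheddases and the 3 most like genes of each member. Members and lists were chosen with earlier results of these data known. Only the ratio interval and the 1.5-fold call were tried on simulated data. Those were Poisson counts without further spread between cells, so they cannot check the intervals against such spread. Alternatives covered scaling, cell weight, filters, classes, seed, resolution, sex typing, richest cells, UMI minimum and depth.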

Additional observations from a re-analysis of the deposited data

Results flagged for a closer look

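For 3 members the NFKO over WT ratio was at least 1.5-fold higher in some class and at least 1.5-fold lower in another, with the farthest apart given here, and in each case the difference between the classes was not tested. Ccl6 had a ratio of 3.44 in tuft-like cells, from 9 and 106 UMIs, and 0.392 in enterocyte-like cells. Ccl9 had 2.33 in tuft-like cells, from 7 and 56 UMIs, and 0.490 in enterocyte-like cells. Ccl20 had 20.1 in enterocyte-like cells and 0.264 in Paneth-like cells.

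The 2 unnamed clusters, 12 and 17, took part in no comparison above and held signal too. There Ccl9 had a ratio of 2.19, from 29 and 412 UMIs, and Cx3cl1 a ratio of 3.90, from 3 and 76 UMIs. Cluster 17, led by Nts, the neurotensin gene, passed 7 of 10 enteroendocrine markers. It stayed unnamed because of its low depth and because none of these markers was among its 10 leading genes. In it Cx3cl1 stood at 5.38 CPM in WT, from 1 UMI, and 43.0 CPM in NFKO, from 60 UMIs.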

How the results depend on the processing

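No paired analysis was possible because each group is 1 library and no result comes from a test. The count of pairs lower in NFKO was 5 and became 8 of 32 counted pairs in male-typed cells and 1 of 21 in cells thinned to 2000 UMIs, where fewer pairs could be counted. The count of higher pairs, 10, ranged from 7 to 11. These counts did not always hold the same pairs. Male-typed cells shared 5 higher and 3 lower pairs with the main setting. Classes by marker score shared 7 and 2, and thinned cells 5 and 1. Of 398 alternative values of the ratios, 44 lay on the other side of 1 from the reported ratio, 39 of them for ratios not called and 5 for called ones. The 5 were as follows. Ccl6 in enterocyte-like cells became 1.47 with the class of each cell set by marker score. Ccl9 in enterocyte-like cells became 1.60 with the mean of per-cell CPM and 1.04 after thinning. Ccl20 became 1.78 in male-typed Paneth-like cells, from 5 NFKO UMIs, and 1.17 in cycling cells without the 3 richest cells. The cause of these changes was not tested. The ratio stayed past 1.5-fold in all 10 alternatives for Ccl20 in enterocyte-like cells (3.56 to 71.6), Cxcl16 in goblet-like (1.82 to 6.02) and enterocyte-like cells (1.88 to 6.49), Ccl28 in goblet-like cells (0.386 to 0.598), and Ccl6 in enteroendocrine-like (1.84 to 2.67) and tuft-like cells (1.94 to 9.54), and Ccl9 in enteroendocrine-like cells (1.64 to 2.53), though some of these pairs fell under 50 UMIs in male-typed or thinned cells. Holding cluster make-up equal, chosen after seeing the data, gave 11 higher and 6 lower pairs.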
